A study of Mus musculus with 8 samples.

Results

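The nuclear-encoded respiratory chain was followed here through 90 genes, represented by 179 probe sets, of the 18193 genes and 45037 probe sets that were tested. A probe set, the group of array probes that measures 1 transcript, belonged to the module when it carried exactly 1 gene symbol and that symbol began with Ndufa, Ndufb, Ndufc, Ndufs, Ndufv, Uqcr, Cox followed by 4 to 8, or Atp5, or was Sdha, Sdhb, Sdhc or Sdhd. Each gene was represented by its probe set with the highest mean level over the 8 arrays, so the choice used no difference between groups. The members were 34 subunits of complex I, 4 of complex II, 8 of complex III, 10 of complex IV and 17 of complex V, or 73 subunits in all. A further 8 members are Ndufaf assembly factors, which build complex I but are not part of it, and 9 are tissue-restricted isoforms or paralogs of complex IV subunits. Ndufa4 was counted with complex IV, to which its protein is now assigned.

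The respiratory chain lies in the inner mitochondrial membrane. Complex I takes electrons from NADH and complex II takes them from succinate, both pass them to ubiquinone, complex III hands them on to cytochrome c, and complex IV transfers them to oxygen. The proton gradient that complexes I, III and IV build up drives ATP synthesis by complex V. Several catalytic subunits of complexes I, III, IV and V are encoded in mitochondrial DNA, and none of the 13 listed was measured under its symbol here. In T cells, activation and proliferation are accompanied by mitochondrial growth, and regulatory T cells are known to rely on oxidative phosphorylation.

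The study set CD4+ T cells that express a wild-type Foxp3 allele tagged with EGFP against cells that express a mutant delta allele with the same tag. Foxp3 encodes the transcription factor that defines regulatory T cells, and the labels describe the delta protein only as mutant and, in the title, as not functional. Cells were sorted by EGFP, the EGFP-expressing ones from hemizygous males, so that each of these males carried a single, tagged Foxp3 allele. The 8 mouse arrays comprised 3 of wild-type EGFP-positive cells, labelled FoxP3(EGFP+), 3 of delta EGFP-positive cells, labelled (delta)FoxP3(EGFP+), 1 of wild-type EGFP-negative cells and 1 of delta EGFP-negative cells. The labels state no age, strain or tissue and do not say whether animals were pooled. They also do not say that replicates are separate animals, and the p-values therefore reflect the spread among these arrays alone, which could be technical. Values are log2 of the deposited intensity, and differences are on the same scale.

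The arrays had median intensities of 53.3 to 54.8 and correlated at 0.98 or more within each EGFP-positive group. Foxp3 went against the labels: it read 4.75, 4.86 and 4.64 in wild-type EGFP-positive arrays 1 to 3 and 11.10, 11.51 and 11.21 in the delta ones, with 4.52 and 6.14 in the wild-type and delta EGFP-negative arrays. The level was 4.75 ± 0.11 against 11.28 ± 0.21 (SD, n = 3 each), a difference of 6.52 (SE 0.14, limma adjusted p = 2.99e-06). The wild-type EGFP-positive arrays thus lay near the EGFP-negative one for a gene by which they were sorted, and where its probes lie relative to the tag and the mutation is not stated in the labels. Of 6 regulatory T cell markers the 5 other than Foxp3 were higher in wild-type EGFP-positive than in wild-type EGFP-negative cells. By limma's test at an adjusted p of 0.05, this held for 1.02% of all genes. Between the EGFP-positive groups 1 of the 6, Foxp3, was higher in the delta cells and 2, Il2ra and Nrp1, were lower. Over all genes 10.4% were higher and 6.02% lower by the same test. Each direction between alleles below rests on the array labels.

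The respiratory chain was higher in delta than in wild-type EGFP-positive cells. Of the 90 members 38, or 42.2%, passed limma's moderated test at an adjusted p of 0.05 with a higher level in the delta cells, and 0 passed with a lower level. Over all probe sets 7.35% passed as higher and 5.39% as lower, and over 1 probe set per gene these were 10.4% and 6.02%. Most members are highly expressed, and among the 6508 genes in the upper 25% of probe sets by mean level 17.9% passed as higher. The median member difference was 0.38, against 0.02 over all genes and 0.04 over these highly expressed genes, and 83 members were above 0. In 67 members all 3 delta arrays lay above all 3 wild-type arrays, which held for 20.2% of all genes and 31.5% of the highly expressed ones. In 3 members all delta arrays lay below, against 14.0% of all genes and 22.7% of the highly expressed ones. With 3 arrays a group an exact permutation test of a single gene cannot give a p below 0.1, so single calls rest on limma's fit across all probe sets. Cell cycle genes were higher as well, 13 of 14 measured, with a median of 2.69 and values by array given further on, and their part in the member differences was not tested. In these bulk samples a larger share of cells with a high level and a higher level per cell cannot be told apart.

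Against the wild-type EGFP-positive mean of each gene, the median member stood at -0.06, 0.04 and 0.01 in wild-type arrays 1 to 3 and at 0.41, 0.33 and 0.40 in delta arrays 1 to 3. It stood at 0.05 in the wild-type EGFP-negative array and at 0.31 in the delta EGFP-negative array. The delta arrays of both sorted fractions were therefore high and both wild-type fractions low. The arrays' titles carry numbers in 3 series, with no stated meaning. Each series holds 1 wild-type and 1 delta EGFP-positive array, and the first also holds both EGFP-negative arrays. Comparisons of EGFP-positive with EGFP-negative cells therefore set 3 series against 1. Within each series the median member difference between the EGFP-positive arrays was 0.51, 0.27 and 0.35, with 84, 79 and 80 members above 0. Over all genes the medians were 0.06, 0.01 and 0.02, with 56.7%, 51.5% and 52.1% above 0. The median lay between 0.34 and 0.41 without each array in turn, but the number of calls depended on single arrays: 10 members passed as higher without wild-type array 1, 17 without wild-type array 3, and 13, 16 and 16 without delta arrays 1, 2 and 3, with 38 without wild-type array 2. The share of all probe sets that passed as higher moved too, to 4.62%, 5.1%, 4.64%, 5.19%, 5.71% and 8.42% in that order.

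**Figure D1:**
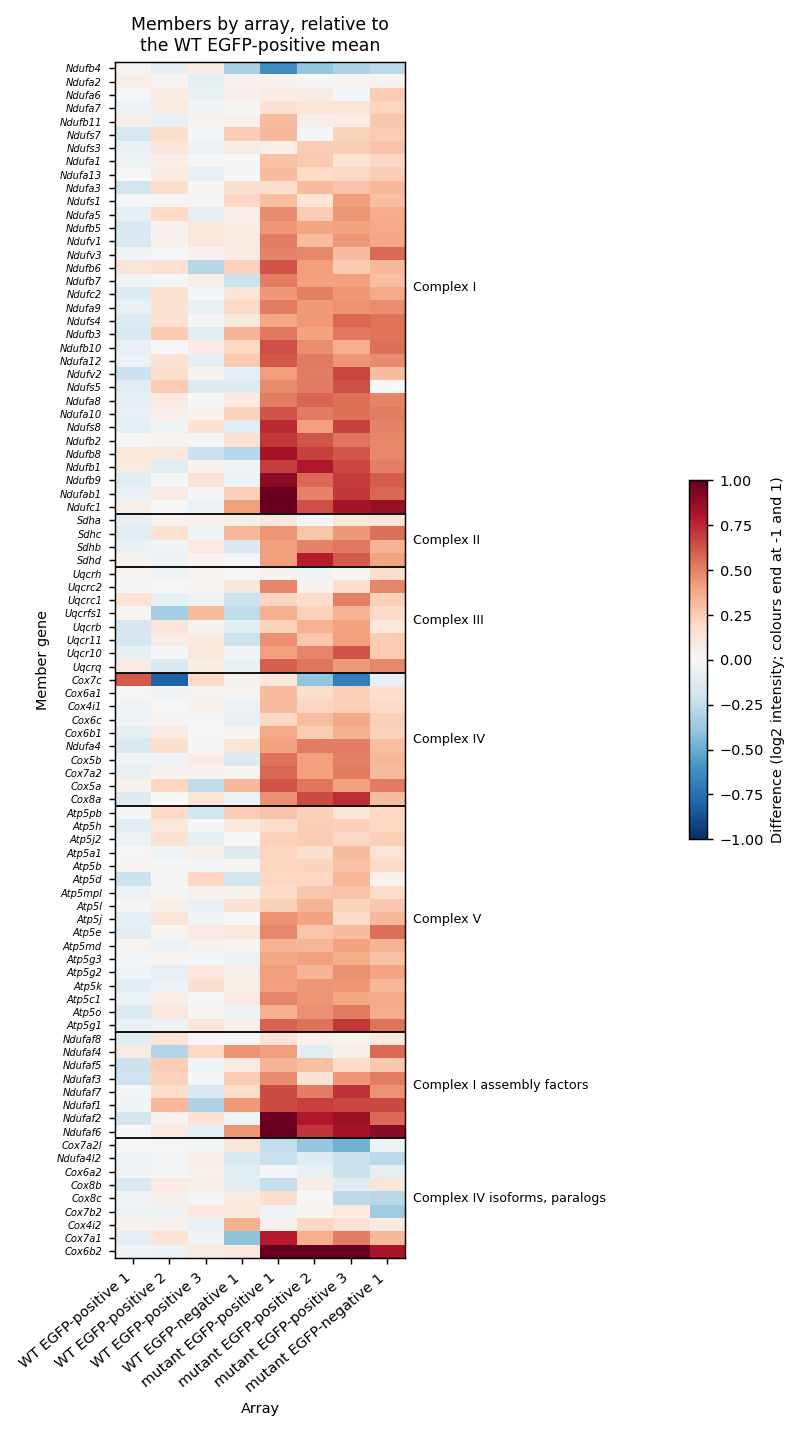
Log2 intensity of each of the 90 members (lines) in each of the 8 arrays (columns), as the difference from that gene's wild-type EGFP-positive mean, with members grouped by complex and colours ending at -1 and 1 (mutant is the delta allele). The 3 delta EGFP-positive arrays and the delta EGFP-negative array are shifted up for most members, with medians of 0.41, 0.33, 0.40 and 0.31.

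Promoters of the leading members are shown because transcription factors that act on nuclear respiratory genes bind there. For each complex the window below is that of the member with the largest difference among those that passed, where RefSeq (GRCm38.p6) lists 1 promoter for it. Each runs 5′ to 3′ on the minus strand, from 250 bases before the annotated start to 50 after it, and capitals mark letters of the motifs described next. Ndufc1 of complex I has the window chr3:51408906-51409205, Sdhd of complex II chr9:50603800-50604099, Uqcr10 of complex III chr11:4704295-4704594, Cox8a of complex IV chr19:7217567-7217866 and Atp5g1 of complex V chr11:96075582-96075881.
Ndufc1: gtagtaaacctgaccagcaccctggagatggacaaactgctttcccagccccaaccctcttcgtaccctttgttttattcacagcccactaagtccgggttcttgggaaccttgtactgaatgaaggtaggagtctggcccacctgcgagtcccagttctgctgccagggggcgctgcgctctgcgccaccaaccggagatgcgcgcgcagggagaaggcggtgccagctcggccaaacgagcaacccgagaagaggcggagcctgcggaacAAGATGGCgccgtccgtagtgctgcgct
Sdhd: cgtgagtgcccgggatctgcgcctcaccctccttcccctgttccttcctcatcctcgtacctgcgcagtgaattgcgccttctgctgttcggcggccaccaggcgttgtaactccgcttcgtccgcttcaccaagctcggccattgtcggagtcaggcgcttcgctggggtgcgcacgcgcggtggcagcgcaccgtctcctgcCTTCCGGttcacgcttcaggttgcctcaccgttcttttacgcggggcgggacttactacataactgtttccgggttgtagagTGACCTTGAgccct
Uqcr10: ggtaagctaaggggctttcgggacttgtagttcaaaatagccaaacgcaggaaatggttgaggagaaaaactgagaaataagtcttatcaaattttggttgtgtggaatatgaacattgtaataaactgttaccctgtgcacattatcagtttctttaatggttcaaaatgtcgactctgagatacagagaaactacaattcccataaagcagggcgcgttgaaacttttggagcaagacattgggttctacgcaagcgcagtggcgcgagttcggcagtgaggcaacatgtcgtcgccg
Cox8a: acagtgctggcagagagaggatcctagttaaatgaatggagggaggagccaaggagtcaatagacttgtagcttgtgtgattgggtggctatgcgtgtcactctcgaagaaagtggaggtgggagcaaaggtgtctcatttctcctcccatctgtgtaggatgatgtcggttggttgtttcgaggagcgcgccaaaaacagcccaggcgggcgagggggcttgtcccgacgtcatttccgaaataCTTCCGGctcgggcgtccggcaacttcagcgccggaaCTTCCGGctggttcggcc
Atp5g1: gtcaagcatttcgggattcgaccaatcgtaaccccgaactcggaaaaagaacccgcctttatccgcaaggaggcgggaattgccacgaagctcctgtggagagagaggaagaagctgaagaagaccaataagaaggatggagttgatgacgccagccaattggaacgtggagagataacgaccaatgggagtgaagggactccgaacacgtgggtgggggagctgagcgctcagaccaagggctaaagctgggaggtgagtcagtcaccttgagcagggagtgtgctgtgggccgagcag

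The motifs were searched as exact letters on both strands. They were CGCATGCG for NRF1, CCGGAAG for the ETS factor GABPA, TCAAGGTCA for the receptor ESRRA and AAGATGGC for YY1, and none of these contains another, although the GABPA and YY1 letters can share 3 bases. Ndufc1 holds the YY1 letters 22 bases after its start, Sdhd the GABPA letters 46 bases before and the ESRRA letters 36 after, and Cox8a the GABPA letters at 5 before and at 32 after. None of these letters occurs in the Uqcr10 and Atp5g1 windows. Of the 74 members with a promoter entry, 13.5% hold the NRF1 letters, 25.7% the GABPA, 2.7% the ESRRA and 13.5% the YY1 letters. The shares over 17491 protein-coding genes were 2.77%, 12.9%, 0.377% and 3.57%. Split by the test, the 35 members that were higher held them at 8.57%, 20.0%, 5.71% and 11.4%, and the 39 others at 17.9%, 30.8%, 0.0% and 15.4%. A match describes the letters only and is no measured binding site.

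**Figure D2:**
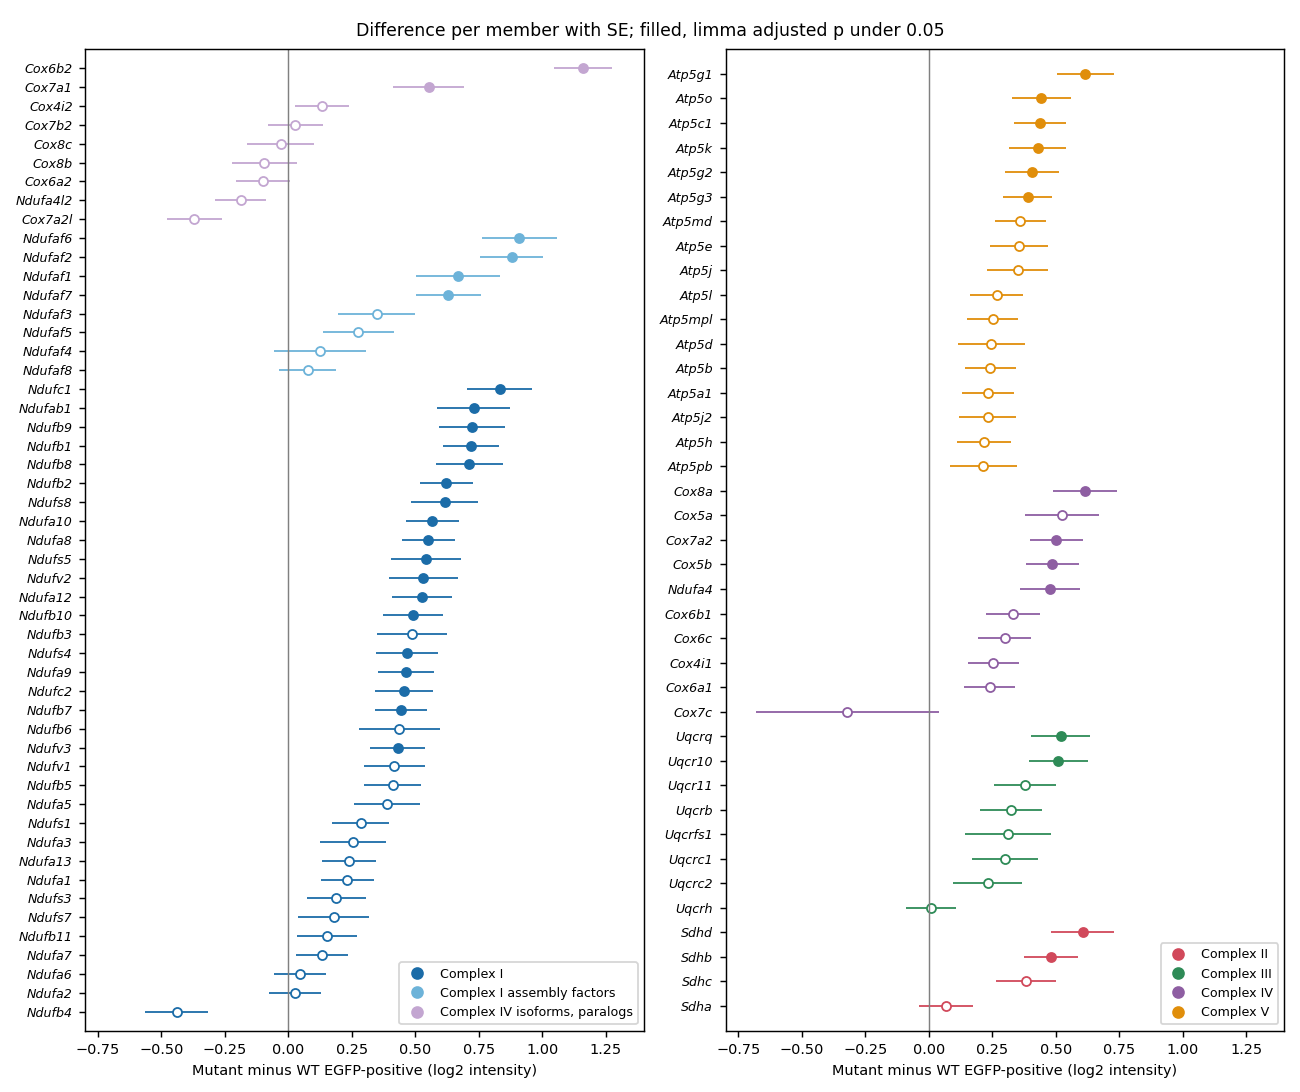
Difference between delta and wild-type EGFP-positive arrays (log2) for each member, with colours for complexes and bars for standard errors (mutant is the delta allele), where filled points passed limma's test at an adjusted p of 0.05. The 38 filled points all lie to the right of 0, and the isoforms and paralogs of complex IV scatter on both sides.

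Complex I, the largest complex of the chain, had 18 of its 34 subunits (52.9%) higher in delta EGFP-positive cells, beside 17.9% of highly expressed genes. The median difference was 0.45, with 33 subunits above 0. Ndufc1, a small accessory subunit of the membrane arm (chr3:51405479-51408955), read 10.53, 10.47 and 10.42 in wild-type EGFP-positive arrays 1 to 3 and 11.50, 11.12 and 11.29 in the delta ones, with 10.88 and 11.35 in the wild-type and delta EGFP-negative arrays. All 3 delta arrays lay above all 3 wild-type arrays, at 10.47 ± 0.06 against 11.30 ± 0.19 (SD, n = 3 each), a difference of 0.83 (SE 0.13, limma adjusted p = 0.00542), a 1.78-fold level. Ndufab1, the mitochondrial acyl carrier protein (chr7:122086815-122101848), read 10.67, 10.82 and 10.72 in wild-type EGFP-positive arrays 1 to 3 and 11.72, 11.24 and 11.44 in the delta ones, with 10.97 and 11.31 in the wild-type and delta EGFP-negative arrays. Its groups did not overlap either, at 10.74 ± 0.08 against 11.47 ± 0.24 (SD, n = 3 each), a difference of 0.73 (SE 0.14, limma adjusted p = 0.0149), but its adjusted p was 0.0619 without wild-type array 1 and 0.0539 without wild-type array 3. Ndufc1 passed without each of the arrays in turn. Further accessory subunits of the membrane arm rose as well: Ndufb9 by 0.72 (adjusted p = 0.0105), Ndufb1 by 0.72 (adjusted p = 0.00539), Ndufb8 by 0.71 (adjusted p = 0.0117) and Ndufb2 by 0.62 (adjusted p = 0.00758). Of these only Ndufb8 lost its call without 1 array, at 0.0523 without delta array 1. With the mean of all probe sets of a gene in place of the representative one, Ndufab1 differed by 0.16 (adjusted p = 0.511) and Ndufb8 by 0.23 (adjusted p = 0.256), neither passing, while Ndufb9 at 0.38 (adjusted p = 0.0388) and Ndufb2 at 0.34 (adjusted p = 0.0335) still passed. The further probe sets had mean levels of 4.02 to 7.74 for Ndufab1 and 6.17 for Ndufb8, against 11.11 and 10.97 for the representative ones.

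The core subunits of complex I carry its flavin, iron-sulfur clusters and quinone site. Of the 6 measured 2 (33.3%) passed as higher, beside 17.9% of highly expressed genes, with a median of 0.35. Ndufs8, an iron-sulfur subunit near the quinone site, read 11.40, 11.46 and 11.65 in wild-type EGFP-positive arrays 1 to 3 and 12.25, 11.91 and 12.19 in the delta ones, with 11.39 and 12.00 in the wild-type and delta EGFP-negative arrays. Its delta arrays lay above its wild-type arrays, with a difference of 0.61 (adjusted p = 0.0216), and its adjusted p was 0.0849 without wild-type array 1, 0.0842 without delta array 1 and 0.067 without delta array 3. Ndufv2, an iron-sulfur subunit of the NADH-oxidising module, differed by 0.53 (adjusted p = 0.0426), with an adjusted p of 0.132 without wild-type array 1, 0.104 without wild-type array 3, 0.0814 without delta array 1, 0.112 without delta array 2 and 0.12 without delta array 3. The other core subunits did not pass: Ndufv1, which binds NADH and flavin, differed by 0.42 (adjusted p = 0.0639), although a further Ndufv1 probe set passed at 0.41 (adjusted p = 0.044), Ndufs1 by 0.28 (adjusted p = 0.164), Ndufs3 by 0.19 (adjusted p = 0.383) and Ndufs7 by 0.18 (adjusted p = 0.516). Accessory subunits, which surround the core and stabilise it, passed in 16 of 28 cases (57.1%), beside 17.9% of highly expressed genes. Their median was 0.46. Beside those named, Ndufa10, Ndufa8, Ndufs5, Ndufa12, Ndufb10, Ndufs4, Ndufa9, Ndufc2, Ndufb7 and Ndufv3 rose, by 0.43 for Ndufv3 up to 0.57 for Ndufa10. Only Ndufa10 of these passed without each array in turn, and with the mean of all probe sets Ndufa10 at 0.29 (adjusted p = 0.157) and Ndufs4 at 0.18 (adjusted p = 0.242) did not pass. Their further probe sets had mean levels of 6.33 for Ndufa10 and 5.52 to 6.97 for Ndufs4, against 10.80 and 10.34 for the representative ones. The smallest positive differences among the subunits that did not pass were 0.03 in Ndufa2 and 0.05 in Ndufa6.

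Ndufb4 was the only complex I subunit below 0. It read 4.91, 4.78 and 4.96 in wild-type EGFP-positive arrays 1 to 3 and 4.26, 4.50 and 4.57 in the delta ones, with 4.56 and 4.63 in the wild-type and delta EGFP-negative arrays, so all 3 delta arrays lay below all 3 wild-type arrays, but the difference of -0.44 did not pass (adjusted p = 0.0577). Its probe set is among the 3 members whose mean level lay at or below the median of all probe sets.

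Complex I is put together by dedicated helper proteins, and 4 of the 8 Ndufaf assembly factors (50%) were higher in delta EGFP-positive cells. The share was 10.4% over all genes and 17.9% over highly expressed ones. Ndufaf6, an early assembly factor (chr4:11048991-11076237), read 6.89, 6.99 and 6.79 in wild-type EGFP-positive arrays 1 to 3 and 8.08, 7.60 and 7.71 in the delta ones, with 7.33 and 7.79 in the wild-type and delta EGFP-negative arrays. All 3 delta arrays lay above all 3 wild-type arrays, at 6.89 ± 0.10 against 7.80 ± 0.25 (SD, n = 3 each), a difference of 0.91 (SE 0.15, limma adjusted p = 0.00669), and it was 1.88-fold higher. Ndufaf2, a paralog of Ndufa12 that acts late in assembly (chr13:108052589-108158652), read 7.55, 7.76 and 7.87 in wild-type EGFP-positive arrays 1 to 3 and 8.71, 8.53 and 8.59 in the delta ones, with 7.69 and 8.30 in the wild-type and delta EGFP-negative arrays. The level was 7.73 ± 0.17 against 8.61 ± 0.09 (SD, n = 3 each), a difference of 0.88 (SE 0.12, limma adjusted p = 0.00372), again without overlap. Both passed without each of the arrays in turn. Ndufaf1 rose by 0.67 (adjusted p = 0.0357), with an adjusted p of 0.113 without wild-type array 1, 0.0926 without wild-type array 3, 0.107 without delta array 1, 0.108 without delta array 2 and 0.0854 without delta array 3. Ndufaf7, a methyltransferase, rose by 0.63 (adjusted p = 0.0163), with an adjusted p of 0.0615 without wild-type array 1, 0.06 without wild-type array 3, 0.0632 without delta array 1 and 0.0545 without delta array 3, while Ndufaf3, Ndufaf4, Ndufaf5 and Ndufaf8 did not pass, at 0.35, 0.12, 0.28 and 0.08.

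Complex II, succinate dehydrogenase, is part of both the chain and the tricarboxylic acid cycle. Of its 4 subunits 2 (50%) passed as higher, beside 17.9% of highly expressed genes. Sdhd, a membrane anchor that holds haem (chr9:50596340-50603849), read 10.55, 10.47 and 10.55 in wild-type EGFP-positive arrays 1 to 3 and 10.94, 11.31 and 11.14 in the delta ones, with 10.51 and 10.92 in the wild-type and delta EGFP-negative arrays. No delta array overlapped a wild-type one, at 10.52 ± 0.05 against 11.13 ± 0.18 (SD, n = 3 each), a difference of 0.61 (SE 0.12, limma adjusted p = 0.0176). Without single arrays its adjusted p was 0.0589 without wild-type array 1, 0.0549 without wild-type array 3, 0.0611 without delta array 2 and 0.052 without delta array 3. The iron-sulfur subunit Sdhb (chr4:140961271-140979198) read 11.23, 11.28 and 11.40 in wild-type EGFP-positive arrays 1 to 3 and 11.72, 11.79 and 11.83 in the delta ones, with 11.15 and 11.64 in the wild-type and delta EGFP-negative arrays. It also showed no overlap, at 11.30 ± 0.08 against 11.78 ± 0.05 (SD, n = 3 each), a difference of 0.48 (SE 0.11, limma adjusted p = 0.0223), with an adjusted p of 0.0849 without wild-type array 1, 0.0569 without delta array 1, 0.0747 without delta array 2 and 0.0686 without delta array 3. The other membrane anchor, Sdhc, differed by 0.38 (adjusted p = 0.0808) without passing. Sdha, the flavin-carrying catalytic subunit, read 10.98, 11.10 and 11.11 in wild-type EGFP-positive arrays 1 to 3 and 11.18, 11.04 and 11.17 in the delta ones, with 11.12 and 11.18 in the wild-type and delta EGFP-negative arrays. Its groups overlapped, with a difference of 0.07 (SE 0.11, adjusted p = 0.782). The difference between Sdha and the other subunits was not tested.

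Complex III had 2 of 8 measured subunits (25%) higher, beside 17.9% of highly expressed genes, a median of 0.32 and every subunit above 0. Uqcrq, a small subunit near the quinone-binding region (chr11:53427922-53430831), read 10.35, 10.12 and 10.34 in wild-type EGFP-positive arrays 1 to 3 and 10.87, 10.80 and 10.70 in the delta ones, with 10.19 and 10.75 in the wild-type and delta EGFP-negative arrays. The groups did not overlap, at 10.27 ± 0.13 against 10.79 ± 0.09 (SD, n = 3 each), a difference of 0.52 (SE 0.12, limma adjusted p = 0.0248), and the adjusted p was 0.0594 without wild-type array 1, 0.0582 without wild-type array 3, 0.0916 without delta array 1 and 0.0818 without delta array 2. Uqcr10, another small subunit (chr11:4701968-4704344), read 10.72, 10.80 and 10.93 in wild-type EGFP-positive arrays 1 to 3 and 11.23, 11.31 and 11.45 in the delta ones, with 10.79 and 11.08 in the wild-type and delta EGFP-negative arrays. It lay above in every delta array, at 10.82 ± 0.11 against 11.33 ± 0.11 (SD, n = 3 each), a difference of 0.51 (SE 0.12, limma adjusted p = 0.0255), with an adjusted p of 0.0962 without wild-type array 1, 0.0545 without delta array 1, 0.0752 without delta array 2 and 0.0785 without delta array 3. With the mean of all probe sets Uqcrq differed by 0.10 (adjusted p = 0.608) and Uqcr10 by 0.25 (adjusted p = 0.225), and neither passed. These means take in dim further probe sets, at mean levels of 5.65 to 6.03 for Uqcrq and 5.24 and 6.67 for Uqcr10. The representative probe sets had mean levels of 10.51 and 11.04. The core proteins Uqcrc1 and Uqcrc2 differed by 0.30 and 0.23, the Rieske iron-sulfur protein Uqcrfs1 by 0.31, Uqcrb by 0.32 and Uqcr11 by 0.38, none of which passed. A further Uqcrb probe set did, at 0.50 (adjusted p = 0.0434). Uqcrh, the hinge protein beside cytochrome c1, read 12.19, 12.13 and 12.20 in wild-type EGFP-positive arrays 1 to 3 and 12.21, 12.15 and 12.19 in the delta ones, with 12.17 and 12.35 in the wild-type and delta EGFP-negative arrays. Its groups overlapped and its difference was 0.01 (SE 0.10, adjusted p = 0.977).

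Complex IV, cytochrome c oxidase, had 4 of its 10 generally expressed subunits (40%) higher, beside 17.9% of highly expressed genes, with a median of 0.40. Cox8a (chr19:7215158-7217616), a small membrane-spanning subunit, read 10.90, 11.03 and 11.16 in wild-type EGFP-positive arrays 1 to 3 and 11.49, 11.69 and 11.77 in the delta ones, with 10.98 and 11.34 in the wild-type and delta EGFP-negative arrays. All 3 delta arrays lay above all 3 wild-type arrays, at 11.03 ± 0.13 against 11.65 ± 0.14 (SD, n = 3 each), a difference of 0.62 (SE 0.13, limma adjusted p = 0.017), with an adjusted p of 0.0684 without wild-type array 1, 0.0642 without delta array 2 and 0.0562 without delta array 3. Cox7a2, the widely expressed isoform of subunit VIIa (chr9:79755241-79771422), read 12.05, 12.16 and 12.16 in wild-type EGFP-positive arrays 1 to 3 and 12.70, 12.54 and 12.64 in the delta ones, with 12.14 and 12.44 in the wild-type and delta EGFP-negative arrays. Its groups did not overlap, at 12.13 ± 0.06 against 12.63 ± 0.08 (SD, n = 3 each), a difference of 0.50 (SE 0.11, limma adjusted p = 0.0192), and its adjusted p was 0.0756 without wild-type array 1, 0.0562 without wild-type array 3, 0.0732 without delta array 1 and 0.0574 without delta array 3. Cox5b, which binds zinc, rose by 0.49 (adjusted p = 0.0204), with an adjusted p of 0.0766 without wild-type array 1, 0.0753 without delta array 1 and 0.0605 without delta array 3, and with the mean of all probe sets it differed by 0.33 (adjusted p = 0.0699). Ndufa4 rose by 0.48 (adjusted p = 0.0372), with an adjusted p of 0.126 without wild-type array 1, 0.11 without wild-type array 3, 0.0822 without delta array 1, 0.115 without delta array 2 and 0.099 without delta array 3. Cox5a, a matrix-side subunit, differed by 0.53 (adjusted p = 0.0544) without passing, but a further Cox5a probe set passed at 0.68 (adjusted p = 0.00588). Cox7c was the 1 subunit below 0 and read 8.98, 7.56 and 8.55 in wild-type EGFP-positive arrays 1 to 3 and 8.48, 7.97 and 7.68 in the delta ones, with 8.41 and 8.28 in the wild-type and delta EGFP-negative arrays. Its wild-type arrays spread over more than 1 log2 unit, and its difference of -0.32 had an SE of 0.36 (adjusted p = 0.678).

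The tissue-restricted isoforms and paralogs of complex IV had a median of -0.03, with 4 of 9 above 0. Of the 9, 2 (22.2%) passed as higher, beside 10.4% of all genes. Cox6b2, an isoform known from testis (chr7:4751792-4753094), had the largest difference of all 90 members. It read 5.73, 5.69 and 5.84 in wild-type EGFP-positive arrays 1 to 3 and 7.06, 6.84 and 6.84 in the delta ones, with 5.86 and 6.57 in the wild-type and delta EGFP-negative arrays. All 3 delta arrays lay above all 3 wild-type arrays, at 5.75 ± 0.08 against 6.91 ± 0.13 (SD, n = 3 each), a difference of 1.16 (SE 0.11, limma adjusted p = 0.000755), or 2.23-fold, and it passed without each array in turn. Cox7a1, the heart and muscle isoform of subunit VIIa (chr7:30184171-30186030), read 4.48, 4.71 and 4.53 in wild-type EGFP-positive arrays 1 to 3 and 5.36, 4.93 and 5.09 in the delta ones, with 4.17 and 4.90 in the wild-type and delta EGFP-negative arrays, which is low on this scale. It showed no overlap, at 4.58 ± 0.12 against 5.13 ± 0.22 (SD, n = 3 each), a difference of 0.55 (SE 0.14, limma adjusted p = 0.0414), with an adjusted p of 0.139 without wild-type array 1, 0.124 without wild-type array 3, 0.121 without delta array 1 and 0.0859 without delta array 3. Cox7a2l, which joins complexes III and IV into supercomplexes, went the other way and read 12.26, 12.26 and 12.24 in wild-type EGFP-positive arrays 1 to 3 and 12.01, 11.86 and 11.77 in the delta ones, with 12.38 and 12.20 in the wild-type and delta EGFP-negative arrays. All 3 delta arrays lay below the wild-type ones, but the difference of -0.37 did not pass (adjusted p = 0.0658). A further Cox7a2l probe set did pass as lower, reading 11.95, 12.10 and 11.98 in the wild-type and 11.48, 11.66 and 11.47 in the delta EGFP-positive arrays (difference -0.47, adjusted p = 0.0302). Ndufa4l2 differed by -0.19, Cox6a2 by -0.10, Cox8b by -0.10, Cox8c by -0.03, Cox7b2 by 0.03 and Cox4i2 by 0.13, and none of them passed.

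Complex V, ATP synthase, had 6 of 17 subunits (35.3%) higher, a median of 0.35 and all 17 above 0. The membrane and stalk part, which carries protons and holds the head, had 5 of 12 (41.7%) higher, beside 17.9% of highly expressed genes. Atp5g1 (chr11:96072793-96075694), which encodes the subunit that forms the proton-driven c-ring, read 10.44, 10.46 and 10.63 in wild-type EGFP-positive arrays 1 to 3 and 11.10, 11.05 and 11.23 in the delta ones, with 10.58 and 11.05 in the wild-type and delta EGFP-negative arrays. No arrays overlapped, at 10.51 ± 0.11 against 11.13 ± 0.09 (SD, n = 3 each), a difference of 0.62 (SE 0.11, limma adjusted p = 0.0109), and it passed without each array in turn. With the mean of all probe sets it differed by 0.31 (adjusted p = 0.058) and did not pass, where its further probe set had a mean level of 3.87. The other c-ring genes passed narrowly, Atp5g2 at 0.41 (adjusted p = 0.0464) and Atp5g3 at 0.39 (adjusted p = 0.0377), and each lost its call whichever of the 6 EGFP-positive arrays was left out. The adjusted p of Atp5g2 was 0.137 without wild-type array 1, 0.0897 without wild-type array 2, 0.0735 without wild-type array 3, 0.127 without delta array 1, 0.0931 without delta array 2 and 0.124 without delta array 3, and that of Atp5g3 was 0.111 without wild-type array 1, 0.0542 without wild-type array 2, 0.113 without wild-type array 3, 0.101 without delta array 1, 0.113 without delta array 2 and 0.0861 without delta array 3. With the mean of all probe sets Atp5g2 differed by 0.14 (adjusted p = 0.369), where its further probe sets had mean levels of 5.62 and 3.58. Atp5o, the peripheral stalk subunit that fixes the head (chr16:91925223-91931630), read 11.13, 11.38 and 11.30 in wild-type EGFP-positive arrays 1 to 3 and 11.62, 11.73 and 11.79 in the delta ones, with 11.22 and 11.64 in the wild-type and delta EGFP-negative arrays. Its delta arrays were all higher, at 11.27 ± 0.13 against 11.71 ± 0.08 (SD, n = 3 each), a difference of 0.44 (SE 0.12, limma adjusted p = 0.0445), with an adjusted p of 0.147 without wild-type array 1, 0.11 without wild-type array 3, 0.0824 without delta array 1, 0.127 without delta array 2 and 0.122 without delta array 3. Atp5k, a small membrane subunit, rose by 0.43 (adjusted p = 0.0474), with an adjusted p of 0.156 without wild-type array 1, 0.0847 without wild-type array 2, 0.121 without delta array 1, 0.132 without delta array 2 and 0.109 without delta array 3.

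The catalytic F1 head had 1 of 5 subunits (20%) higher, near the 17.9% of highly expressed genes. The central shaft Atp5c1 read 12.08, 12.19 and 12.13 in wild-type EGFP-positive arrays 1 to 3 and 12.62, 12.57 and 12.52 in the delta ones, with 12.22 and 12.52 in the wild-type and delta EGFP-negative arrays. Its groups did not overlap, with a difference of 0.44 (adjusted p = 0.0281), and its adjusted p was 0.101 without wild-type array 1, 0.0864 without wild-type array 3, 0.0955 without delta array 1, 0.0866 without delta array 2 and 0.0592 without delta array 3. With the mean of all probe sets it differed by 0.21 (adjusted p = 0.337), where its further probe set had a mean level of 7.04. Atp5b, the catalytic subunit, read 12.48, 12.45 and 12.44 in wild-type EGFP-positive arrays 1 to 3 and 12.67, 12.68 and 12.75 in the delta ones, with 12.48 and 12.64 in the wild-type and delta EGFP-negative arrays. Here too all delta arrays lay above all wild-type arrays, by a smaller 0.24 (adjusted p = 0.174) that did not pass. Atp5a1, the other large head subunit, differed by 0.23 (adjusted p = 0.215), Atp5d by 0.25 (adjusted p = 0.317) and Atp5e by 0.36 (adjusted p = 0.09). The 16 complex V subunits whose arrays did not overlap thus include all 5 of the head. Such a higher level without overlap held for 20.2% of all genes and 31.5% of the highly expressed ones.

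**Figure D3:**
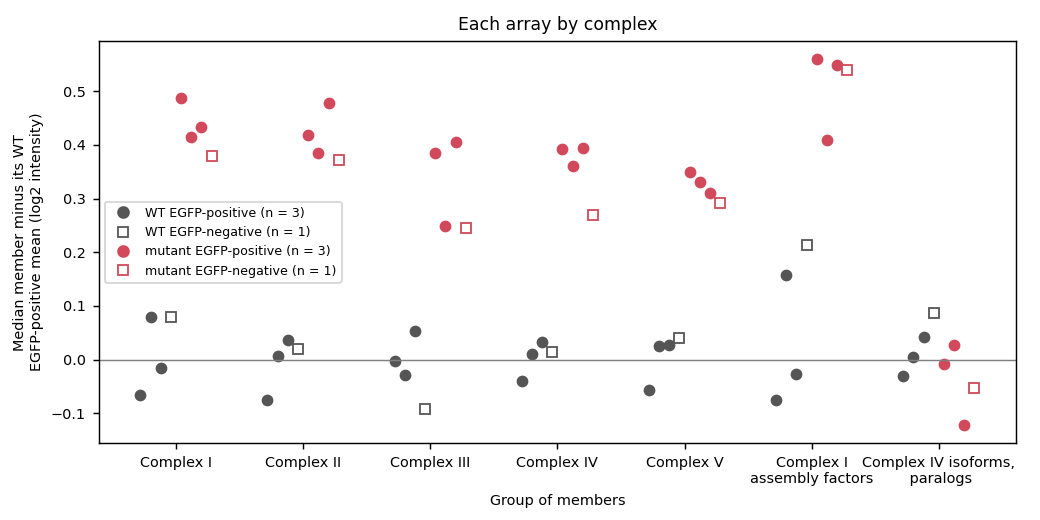
Median level of the members of each complex in each array, as the difference from the wild-type EGFP-positive mean (log2), with 1 point per array, EGFP-positive arrays as filled circles and EGFP-negative ones as open squares. For complexes I to V all 4 delta (mutant) arrays lie above the wild-type EGFP-positive arrays, and no difference between complexes was tested.

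Further probe sets gave the same genes a further reading. Of 89 further probe sets of 51 members, 72 had the sign of the representative probe set. Among the 71 with a mean level above the median of all probe sets, 26 passed as higher, 1 as lower and 63 kept the sign, with a median of 0.31. Over all probe sets 7.35% passed as higher and 5.39% as lower. With probe sets of low intensity left out, 14.6% passed as higher. Among the 18 at or below that median 0 passed at the adjusted threshold. None of the 17 with the opposite sign passed. Among members whose representative probe set did not pass, a further one was higher in Cox5a, Ndufv1 and Uqcrb as given above, and in Ndufb6 at 0.65 (adjusted p = 0.00741), Atp5pb at 0.56 (adjusted p = 0.0149) and Cox6a1 at 0.42 (adjusted p = 0.0369). Cox5b read 12.49, 12.50 and 12.61 and 13.07, 12.95 and 13.04 in wild-type and delta EGFP-positive arrays, and 3 of its 5 further probe sets passed as higher, at 0.44 (adjusted p = 0.0293), 0.65 (adjusted p = 0.00754) and 0.59 (adjusted p = 0.0121). The 1 Cox5b probe set of opposite sign read 7.93, 6.88 and 7.93 in the wild-type and 7.47, 7.14 and 6.96 in the delta EGFP-positive arrays (difference -0.39, adjusted p = 0.499). Of 4 further Ndufab1 probe sets, 3 had the sign of the representative without passing, at 0.31, 0.15 and 0.14, and the other, with wide spread between arrays, read 6.26, 6.46 and 5.41 in the wild-type and 5.22, 4.94 and 6.45 in the delta EGFP-positive arrays (difference -0.51, adjusted p = 0.542). Ndufb2 had 1 further probe set that passed at 0.60 (adjusted p = 0.0176) and 1 of opposite sign that read 7.14, 6.72 and 6.51 in the wild-type and 6.71, 6.37 and 6.72 in the delta EGFP-positive arrays (difference -0.19, adjusted p = 0.614). Differences below 0 that did not pass were also found in further probe sets of Ndufb8, Ndufb9, Ndufs4, Ndufa12, Ndufa3, Ndufaf8, Uqcr10, Uqcrq, Atp5c1, Atp5g2, Atp5j2 and Sdha, and one above 0 in Cox6a2, whose representative was below 0. Of the 90 representative probe sets 19 have names ending in _s_at or _x_at, which marks possible binding of related transcripts, and 9 of the 38 that passed are among them.

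Within the wild-type cells the chain was set side by side in EGFP-positive and EGFP-negative CD4+ cells. Of the 90 members 0 passed limma's test, against 1.1% of all probe sets, and at an unadjusted p under 0.05 there were 0 higher and 1 lower, against 4.84% and 4.57% of all probe sets. The median difference was -0.05, the members ranged from -0.45 to 0.40, and the median SE was 0.16, since the EGFP-negative group has 1 array. The 1 member past the unadjusted threshold was Cox4i2, an isoform of subunit IV that read 5.85, 5.86 and 5.74 in wild-type EGFP-positive arrays 1 to 3 and 5.86, 6.03 and 5.96 in the delta ones, with 6.18 and 5.91 in the wild-type and delta EGFP-negative arrays, a difference of -0.36 (limma adjusted p = 0.514). By complex, the smallest p fell to Ndufc1 at -0.41 (limma adjusted p = 0.551), Sdhc at -0.33 (limma adjusted p = 0.617), Uqcr11 at 0.21 (limma adjusted p = 0.809), Cox5a at -0.32 (limma adjusted p = 0.727) and Atp5pb at -0.26 (limma adjusted p = 0.776). Among the assembly factors it was Ndufaf6, at -0.44.

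Within the delta cells 0 of 90 members passed between EGFP-positive and EGFP-negative cells, against 0.0755% of all probe sets, with 2 higher and 0 lower at an unadjusted p under 0.05, against 4.69% and 5.03%. The median difference was 0.05. Ndufs5, a complex I accessory subunit, read 9.79, 10.15 and 9.76 in wild-type EGFP-positive arrays 1 to 3 and 10.37, 10.42 and 10.53 in the delta ones, with 9.77 and 9.90 in the wild-type and delta EGFP-negative arrays, so its delta EGFP-negative array lay below all 3 delta EGFP-positive arrays, by 0.54 (limma adjusted p = 0.437). Cox7b2 read 3.82, 3.81 and 3.97 in wild-type EGFP-positive arrays 1 to 3 and 3.83, 3.89 and 3.96 in the delta ones, with 3.97 and 3.51 in the wild-type and delta EGFP-negative arrays, a difference of 0.38 (limma adjusted p = 0.474) at a low level. Elsewhere the smallest p fell to Ndufaf2 at 0.31, Sdhd at 0.21, Uqcr10 at 0.25, Cox8a at 0.31 and Atp5e at -0.19. These comparisons share the EGFP-positive arrays with the comparison between alleles.

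Between the EGFP-negative cells the delta array was higher in 82 of 90 members, against 50.3% of all genes and 55.3% of the highly expressed ones. With 1 array per allele there is no replicate check and no test. The median difference was 0.26 and the members ranged from -0.46 in Cox7b2 to 0.76 in Ndufb8, so 0 of 90 differed by 1 log2 unit or more, which 2.82% of all probe sets did upward. Ndufb8 read 10.78, 10.79 and 10.46 in wild-type EGFP-positive arrays 1 to 3 and 11.51, 11.36 and 11.30 in the delta ones, with 10.39 and 11.15 in the wild-type and delta EGFP-negative arrays, and its wild-type EGFP-negative array was the lowest of the 8. All 38 members that passed in EGFP-positive cells were above 0 here, with a median of 0.39, as were 44 of the other 52. The medians by complex were 0.27 in complex I, 0.32 in II, 0.41 in III, 0.24 in IV and 0.27 in V, and -0.11 in the isoforms and paralogs.

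The allele differences of the EGFP-positive and EGFP-negative cells share no array. Both EGFP-negative arrays carry numbers of the title series that holds EGFP-positive array 1 of each allele. In 79 of 90 members, or 87.8%, both allele differences were above 0, compared with 34.6% of all genes and 42.6% of the highly expressed ones. Both were below 0 in 4 members and opposite in 7. Over the 90 genes the differences correlated at a Pearson r of 0.732, and over all 18193 genes at 0.684, which describes genes on shared arrays and not replicates. In the interaction of allele and EGFP 0 of 90 members passed limma's test, against 0.04% of all probe sets. At an unadjusted p under 0.05 there were 0 in either direction, against 2.66% upward and 3.48% downward, and the smallest adjusted p was 0.824. With so few calls over all probe sets and 1 EGFP-negative array per allele, these counts cannot tell whether the allele difference varied between fractions. The median interaction was 0.08, with a median SE of 0.23. The smallest p in each group fell to Ndufb4 at -0.50, Ndufaf6 at 0.45, Sdhd at 0.19, Uqcr10 at 0.22, Ndufa4 at 0.29, Cox7b2 at 0.49 and Atp5pb at 0.26.

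**Figure D4:**
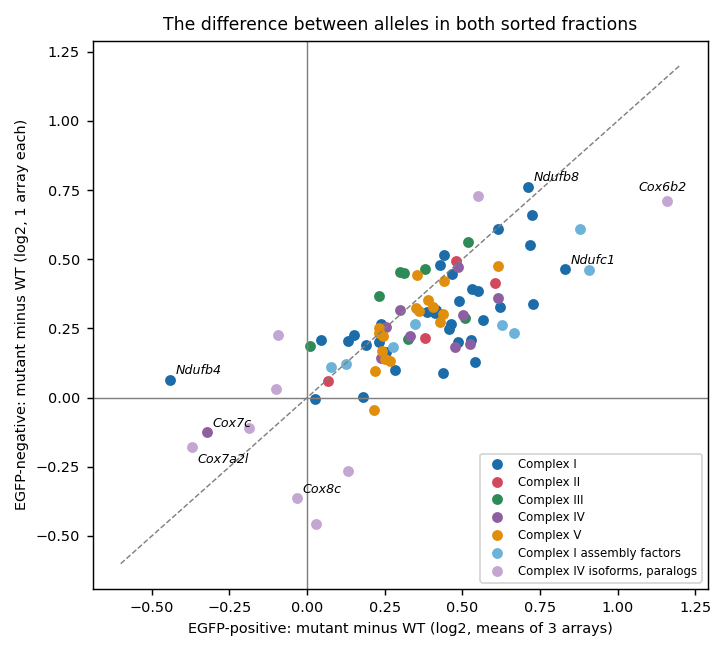
Allele difference (delta minus wild type, log2) of each member in EGFP-negative cells, 1 array per allele, against that in EGFP-positive cells, 3 arrays per allele, with colours for complexes and a dashed line of equality (mutant is the delta allele). In 79 of the 90 members both differences lie above 0, and the correlation over genes is 0.732.

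Genes that feed or serve the chain but lie outside the member rule were taken from fixed lists. The next list held 9 genes of the electron carriers and their synthesis, with the cytochrome c1 gene Cyc1 of complex III. Of these 7 (77.8%) were higher in delta EGFP-positive cells, beside 10.4% of all genes and 17.9% of highly expressed ones. The count lower was 0 and the median was 0.60. Coq7, an enzyme of ubiquinone synthesis, read 7.69, 6.86 and 7.47 in wild-type EGFP-positive arrays 1 to 3 and 9.03, 8.69 and 8.93 in the delta ones, with 7.63 and 8.53 in the wild-type and delta EGFP-negative arrays. Its groups did not overlap, with a difference of 1.54 (adjusted p = 0.00355). Etfb, a subunit of the flavoprotein that brings electrons from fatty acid oxidation, differed by 1.30 (adjusted p = 0.000562) and Coq3, another ubiquinone enzyme, by 1.26 (adjusted p = 0.0119). Of 13 tricarboxylic acid cycle genes 3 (23.1%) were higher, near the 17.9% of highly expressed genes. They were the fumarase gene Fh1 by 1.18 (adjusted p = 0.0014), Idh3a by 0.88 (adjusted p = 0.00162) and citrate synthase Cs by 0.57 (adjusted p = 0.0244). Of 34 other assembly factors 4 (11.8%) were higher, close to the 10.4% of all genes and below the 17.9% of highly expressed ones. For them the count lower was 0 and the median was 0.34. Atpif1, the inhibitor protein of ATP synthase, rose by 0.90 (adjusted p = 0.00224).

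Of 19 regulators of mitochondrial biogenesis and mitochondrial DNA, 1 (5.26%) was higher and 2 (10.5%) lower in delta EGFP-positive cells, with a median of -0.11. Over all genes the shares were 10.4% and 6.02%. The mitochondrial rRNA methyltransferase Tfb1m rose by 0.68 (adjusted p = 0.0191). The coactivator Ppargc1b read 8.49, 8.32 and 8.76 in wild-type EGFP-positive arrays 1 to 3 and 8.12, 7.77 and 7.80 in the delta ones, with 8.94 and 8.70 in the wild-type and delta EGFP-negative arrays, and all 3 delta EGFP-positive arrays lay below the wild-type ones. Its difference was -0.63 (adjusted p = 0.0358), and the mitochondrial DNA polymerase Polg differed by -0.52 (adjusted p = 0.0319). Nrf1, whose motif letters were searched above, did not pass at -0.18 (adjusted p = 0.568), nor did Tfam, which packages mitochondrial DNA, at -0.06 (adjusted p = 0.817). An mRNA level does not measure the activity of such a factor.

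The cell cycle list was also higher in the delta arrays of both sorted fractions than in the wild-type arrays. Of its 14 measured genes 13 (92.9%) were higher and 0 lower in delta EGFP-positive cells, beside 10.4% and 6.02% of all genes. The median difference of the list was 2.69. Its mean level was 8.51, 7.95 and 8.90 in the wild-type and 10.86, 10.77 and 10.96 in the delta EGFP-positive arrays. It was 7.78 in the wild-type and 10.09 in the delta EGFP-negative array. The 13 handling-stress genes, such as Fos and Jun, had a median of -0.93, with 0 higher and 3 (23.1%) lower. Their array means were 10.90, 9.84 and 10.86 in the wild-type and 9.91, 9.95 and 8.59 in the delta EGFP-positive arrays. Of 6 CD4 T cell markers 0 were higher and 2 (33.3%) lower. The share that passed as lower was 6.02% over all genes and 11.5% over highly expressed ones. Markers of B, myeloid, CD8, NK and erythroid cells gave 0 calls, with medians of -0.21 for 5 B cell genes, 0.50 for 7 myeloid, 0.93 for 2 CD8, 0.11 for 2 NK and 0.23 for 3 erythroid genes. Their mean levels ran from 5.47 to 6.05 in wild-type and 5.29 to 5.51 in delta EGFP-positive arrays for B cells, from 5.74 to 6.23 in wild-type and 5.77 to 6.65 in delta EGFP-positive arrays for myeloid cells and from 5.94 to 6.71 in wild-type and 6.26 to 8.12 in delta EGFP-positive arrays for CD8 T cells. The part of proliferation, handling or other cells in the member differences was not tested.

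**Figure D5:**
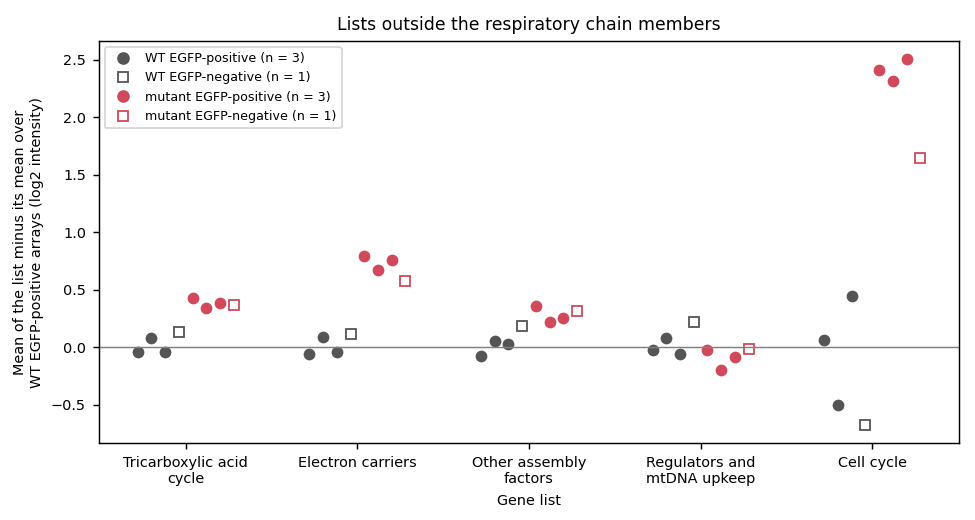
Mean level of 5 gene lists outside the member rule in each array, as the difference from the wild-type EGFP-positive mean (log2), with filled circles for EGFP-positive and open squares for EGFP-negative arrays. The cell cycle list reaches 2.31 to 2.50 in the delta EGFP-positive arrays and 1.64 in the delta EGFP-negative array, against 0.68 to 0.79 for the electron carriers.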

How the data were processed

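Total RNA of 8 sorted samples was biotin-labelled and hybridised to Affymetrix arrays, per the labels. The authors deposited RMA-normalised intensity values on a linear scale, per the labels and the submitters' processing notes, and the labels name no RMA version. RMA shares information between arrays and compresses small differences at low intensity, and no detection calls were used. The deposited intensities were converted to log2 without a pseudocount, the lowest being 7.95. Of 45101 probe sets 64 controls were left out, and of the remaining 45037, 34945 carried 1 gene symbol in GEO's platform annotation, 932 several and 9160 none. Symbols with several genes were not used, and all 90 members matched RefSeq.

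A mean per group was fitted to all 8 arrays with limma 3.58.1 in R 4.3.3, with 4 residual and 3.72 prior degrees of freedom. Each EGFP-negative group has 1 array, assumed to vary like the replicated groups. Tests were two-sided, adjusted by Benjamini-Hochberg over all 45037 probe sets, with a threshold of 0.05. The fit was tested on simulated data. Alternatives were a filter on low intensity, the mean of a gene's probe sets, arrays centred on their median, a variance trend, the title number series as a block, EGFP-positive arrays alone, and each replicate left out.

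Values in every array are given for the members with the largest differences among those that passed, up to 2 per complex, or with the smallest p where none passed, and for 3 of the members with further probe sets of opposite sign. For further lists up to 3 genes that passed were named, and others were chosen after their values were seen. The members and lists were chosen with earlier results of these data known. Promoter windows are RefSeq's, on GRCm38.p6.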

Additional observations from a re-analysis of the deposited data

How the results depend on the processing

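The count of members higher in delta EGFP-positive cells was 38, and it ranged from 10 to 38 when 1 array was left out. It was 42 without probe sets of low intensity, 41 with the mean of a gene's probe sets and 40 with centred arrays. With a variance trend it was 50, and with the title number series as a replicate block it was 17. Over all probe sets tested in each setting, or genes for the mean, 14.6%, 11.6%, 7.78%, 7.38% and 6.01% passed as higher, in that order. The main fit gave 7.35%. Deviations of same-series wild-type and delta EGFP-positive arrays from their group means correlated at 0.121, 0.0457 and -0.102. For arrays of different series the correlations ran from -0.153 to 0.093, and the numbers were not taken as pairs. The count of members lower was 0, but 1 with probe sets of low intensity left out, 2 with the mean of all probe sets of a gene and 2 with a variance trend. With the mean of all probe sets the median difference was 0.31 over all members, 0.37 in complex I, 0.35 in II, 0.28 in III, 0.36 in IV and 0.27 in V. Leaving out 1 array moved the median of complex III to between 0.29 and 0.38, of complex IV to between 0.35 and 0.42 and of complex V to between 0.29 and 0.35. Of the 38 members that passed, 7 did so in every one of the 12 alternatives that were run (Cox6b2, Ndufaf2, Ndufaf6, Ndufb1, Ndufb2, Ndufb9 and Ndufc1), 9 without each single replicate and 17 with the block, and 0 changed sign. Under the alternatives 153 of 455 results of single members no longer passed. These counts include the fit of EGFP-positive arrays alone. It could not differ from the main fit, since a group of 1 array adds nothing to the estimated spread. Both fits called 3308 probe sets higher and 2426 lower. Cox6b2, Ndufaf2, Ndufaf6 and Ndufb1 have 1 probe set each, so the mean of a gene's probe sets used the same values for them. Of the members that did not pass, 19 did under at least 1 alternative. Restricting the count to the 73 subunits, a choice made after seeing the data, gave 43.8%. The 2 EGFP-negative arrays limit the precision of each comparison that uses them.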
